A study of Homo sapiens with 2 samples.

Results

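The 10 genes described here are known as targets of YAP and TEAD. Their counts come from H460, a line grown from a human large-cell carcinoma of the lung. Whether YAP and TEAD act on these genes in H460 was not tested. The 10 genes were taken by name, as the rows whose Ensembl IDs carry the symbols CCN1, CCN2, ANKRD1, AMOTL2, AJUBA, LATS2, NUAK2, PTPN14, NT5E and F3. All 10 were among the 22965 genes listed, and all had a mean of at least 10 counts over both libraries. The RNA-seq counts come from 1 library of cells in which the pSin-puro vector delivered PKP2, a plakophilin of desmosomes, and 1 library of cells with the vector alone, called the PKP2 library and the vector library. Both cultures were grown in DMEM with serum and taken at passage 5. Whether either culture was a clone or a pool is not given in the sources used here. The study looked for genes downstream of PKP2.

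YAP and its relative TAZ are coactivators that carry no DNA-binding domain of their own and act on genes mainly through the TEAD transcription factors. The Hippo kinases LATS1 and LATS2 phosphorylate YAP and TAZ, which keeps them out of the nucleus, and cell junctions and the actin cytoskeleton feed into this step. Several target genes encode inhibitors of the pathway, so that YAP activity raises its own brakes. CCN1 and CCN2 were formerly called CYR61 and CTGF, and with ANKRD1 they are widely used as readouts of the pathway.

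TEAD factors recognise the sequence CATTCC, which reads GGAATG on the other strand, and the stretches before 4 of the genes are shown because they hold it. RefSeq promoter windows (GRCh38.p14) were found for 9 of the 10 members, with 2 start sites each for AMOTL2 and AJUBA. CCN1 had no window and was not searched. The 250 bases before each start were searched on both strands. Stretches inside an annotated untranslated region were left out of what is printed. Capitals mark TEAD matches and, in ANKRD1, the first 6 bases of TGATTCA, a match to the AP-1 motif TGANTCA. The sequences run 5′ to 3′ on the strand of the gene, which is the minus strand in each case. They lie at chr6:131951374-131951622 (CCN2), chr10:90921277-90921337 (ANKRD1), chr1:205321792-205321995 (NUAK2) and chr1:214551603-214551852 (PTPN14).
CCN2: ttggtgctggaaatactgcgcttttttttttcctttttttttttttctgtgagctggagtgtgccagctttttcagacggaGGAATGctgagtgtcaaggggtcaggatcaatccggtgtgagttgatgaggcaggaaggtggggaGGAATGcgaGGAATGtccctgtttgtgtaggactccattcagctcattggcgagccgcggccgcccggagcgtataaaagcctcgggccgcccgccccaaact
ANKRD1: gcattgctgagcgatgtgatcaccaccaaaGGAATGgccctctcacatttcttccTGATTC
NUAK2: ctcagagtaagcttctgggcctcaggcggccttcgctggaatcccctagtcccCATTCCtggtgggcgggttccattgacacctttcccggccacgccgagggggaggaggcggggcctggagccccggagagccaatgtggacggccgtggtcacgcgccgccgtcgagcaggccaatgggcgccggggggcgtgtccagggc
PTPN14: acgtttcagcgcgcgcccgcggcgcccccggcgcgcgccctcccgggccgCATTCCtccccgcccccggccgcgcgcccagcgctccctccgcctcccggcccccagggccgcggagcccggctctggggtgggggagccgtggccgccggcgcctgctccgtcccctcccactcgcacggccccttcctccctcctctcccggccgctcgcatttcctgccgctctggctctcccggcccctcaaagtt

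CCN2 had 3 matches to CATTCC, all in the GGAATG orientation. They began 169, 104 and 95 bases before the start of the gene, the last pair being a close tandem. ANKRD1 and NUAK2 each had 2 matches in the window, of which the sequences above show 1. PTPN14, the second start of AMOTL2 and the second start of AJUBA had 1 each. LATS2, NT5E and F3 had none, which says only that these letters are not in these 250 bases. The bases just after the start matched an annotated transcript of the gene in every window but that of LATS2. The LATS2 start is thus unchecked. Of the 11 member windows 6 held the motif, and of 35116 RefSeq windows of the same length 11.9% did. The members were taken as YAP/TEAD targets, so the difference between these shares is not a result about the 2 libraries. The AP-1 motif stood in the windows of ANKRD1 (1 match) and F3 (2 matches), and in 6.57% of all windows, with no overlap with a TEAD match. The CArG box, bound by SRF, was in no member window and in 1.16% of all windows. The map of matches by distance from the start shows these positions.

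**Figure D1:**
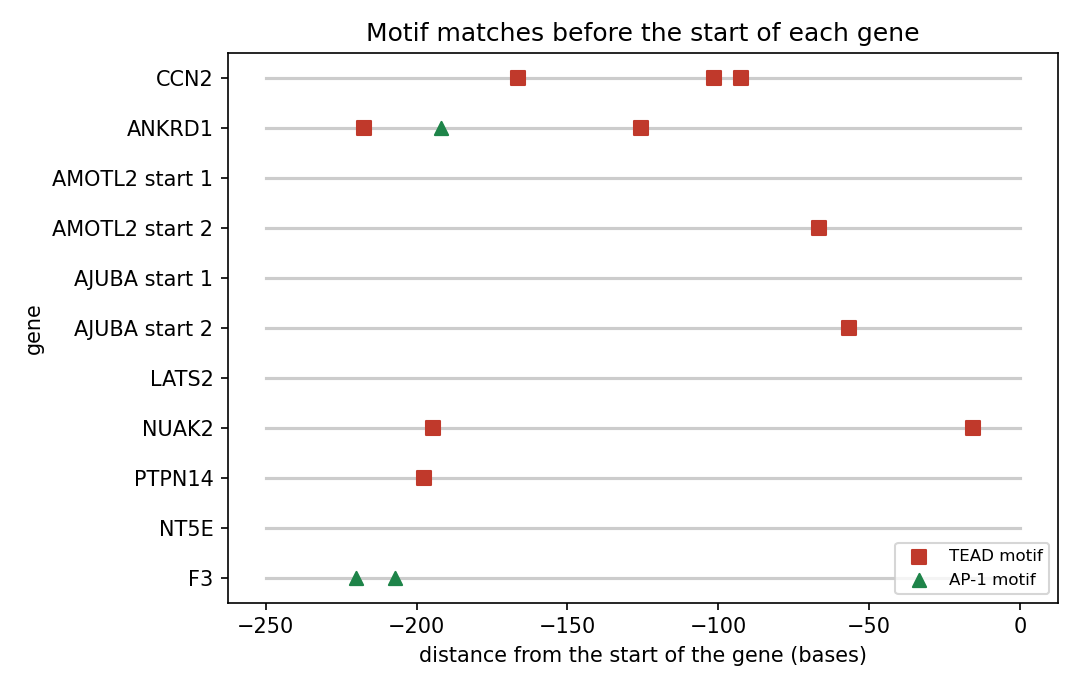
Matches to the TEAD motif (squares) and the AP-1 motif (triangles) in the 250 bases before each start of the 9 members other than CCN1, by distance from the start of the gene in bases. CCN2 has 3 TEAD matches, ANKRD1 and NUAK2 have 2 each, and LATS2, NT5E and the first starts of AMOTL2 and AJUBA have no match to either motif.

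The PKP2 library held 20319137 counts and the vector library 23513304. PKP2 itself had 1330 counts in the PKP2 library, against 181 in the vector library, 8.66-fold higher (a log2 ratio of 3.11), which is the direction the labels give. The keratin genes KRT8, KRT18 and KRT19 of epithelial cells were well counted in both libraries. The 5 of 6 epithelial markers listed summed to 1237 CPM in the PKP2 library and 1230 CPM in the vector library, but they split. KRT19 had 11645 counts in the PKP2 library and 6501 in the vector library (a log2 ratio of 1.08), while KRT8 (-0.58), KRT18 (-0.41), KRT7 (-0.76) and EPCAM (-0.57) had log2 ratios below 0. EPCAM, an epithelial adhesion protein, had 16 counts in the PKP2 library and 28 in the vector library, and CDH1 was not analysed here. Fibroblast markers summed to 30.3 CPM in the PKP2 library and 52.3 CPM in the vector library over the 4 of 6 that the files list. COL3A1 (a log2 ratio of -1.31) and COL1A1 (-1.22) were lower in the PKP2 library, PDGFRB (1.14) was higher and LUM was at 0.11. Leukocyte markers, of which 3 of 6 were listed, summed to 21.6 CPM in the PKP2 library and 19.2 CPM in the vector library. CD68 gave 412 of the counts in the PKP2 library and 362 in the vector library, and CD14 gave 23 in the PKP2 library and 90 in the vector library. PTPRC, the leukocyte common antigen, was not analysed here, and endothelial markers summed to 0 counts in the PKP2 library and 4 in the vector library. The part of these differences in the results was not tested.

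Ratios below are log2 values of the CPM in the PKP2 library over that in the vector library, where CPM is the count per 1000000 counts of the TMM-scaled library total. With 1 library per group no ratio has a replicate check, overlap between groups cannot be judged, and there is no test across samples. The 95% intervals are exact binomial (Clopper-Pearson) intervals of the pair of counts and cover counting error only. In such bulk RNA, fewer cells making a transcript and less of it per cell cannot be told apart.

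The 10 members did not move as a block. CCN2 and NT5E were more than 1.5-fold higher in the PKP2 library, PTPN14 and LATS2 were higher by less, and AJUBA was lower. For CCN1, ANKRD1, AMOTL2, NUAK2 and F3 the counting interval of the ratio took in 0. The median ratio of the 10 was 0.18, beside -0.03 over the 15991 genes that reach a mean of 10 counts, and 6 of the 10 were above 0, where 47.3% of all these genes were.

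Among the members that act outside the cell, CCN2, a secreted matrix-associated protein that binds integrins and growth factors, had 535 counts (26.6 CPM) in the PKP2 library and 376 counts (15.8 CPM) in the vector library. This is a ratio of 0.75 (interval 0.55 to 0.94), or 1.68-fold higher in the PKP2 library. NT5E, the surface enzyme CD73 that makes adenosine from AMP, had 410 counts (20.4 CPM) in the PKP2 library and 281 counts (11.8 CPM) in the vector library. Its ratio of 0.78 (interval 0.56 to 1.01) was the highest of the 10, and the interval reaches just past 2-fold. Only 4.47% of all genes had a ratio above that of CCN2 and 4.07% one above that of NT5E.

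CCN1, the closest relative of CCN2 among the members and likewise a secreted integrin ligand, had 171 counts (8.49 CPM) in the PKP2 library and 166 counts (7.00 CPM) in the vector library. Its ratio of 0.28 had an interval of -0.04 to 0.60, so a difference was not detectable at this depth. F3, tissue factor, the surface receptor that starts blood clotting, had 275 counts (13.7 CPM) in the PKP2 library and 325 counts (13.7 CPM) in the vector library. Scaled to library size these levels were nearly equal, with a ratio of -0.0045 (interval -0.24 to 0.23).

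Among the members that restrain YAP, PTPN14, a tyrosine phosphatase that binds YAP, had by far the most counts. It had 9401 counts (467 CPM) in the PKP2 library and 7616 counts (321 CPM) in the vector library, a ratio of 0.54 (interval 0.50 to 0.58), just under 1.5-fold. At this depth the interval is the narrowest of the 10. An overlapping gene on the same strand, ENSG00000228470, had 126 counts in the PKP2 library and 6 in the vector library, and the sum of both genes had a ratio of 0.56.

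LATS2, the kinase that phosphorylates YAP, had 779 counts (38.7 CPM) in the PKP2 library and 723 counts (30.5 CPM) in the vector library, a ratio of 0.34 (interval 0.20 to 0.49). AMOTL2, an angiomotin-family protein that holds YAP at junctions, had 513 counts (25.5 CPM) in the PKP2 library and 569 counts (24.0 CPM) in the vector library. Its ratio was 0.09 (interval -0.09 to 0.26). Of these 3 restraining genes, as counted, PTPN14 and LATS2 had intervals wholly above 0, and that of AMOTL2 took in 0.

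Of the members known to favour YAP activity, AJUBA had a ratio below 0. That of NUAK2 was below 0 as counted, with 0 in its interval, and above 0 after the correction for GC content given below. A split of the members by role was not tested. AJUBA, a LIM-domain protein that binds and inhibits LATS kinases, had 501 counts (24.9 CPM) in the PKP2 library and 730 counts (30.8 CPM) in the vector library, a ratio of -0.31 (interval -0.47 to -0.14). It was the only member whose interval lay wholly below 0. NUAK2, a kinase of the AMPK family that acts on actomyosin, had 147 counts (7.30 CPM) in the PKP2 library and 183 counts (7.71 CPM) in the vector library, a ratio of -0.08 (interval -0.40 to 0.24).

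ANKRD1, an ankyrin-repeat protein best known from heart muscle, had only 29 counts (1.44 CPM) in the PKP2 library and 37 counts (1.56 CPM) in the vector library. Its ratio of -0.11 has an interval of -0.87 to 0.63, which is too wide to place this gene with or against CCN2.

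**Figure D2:**
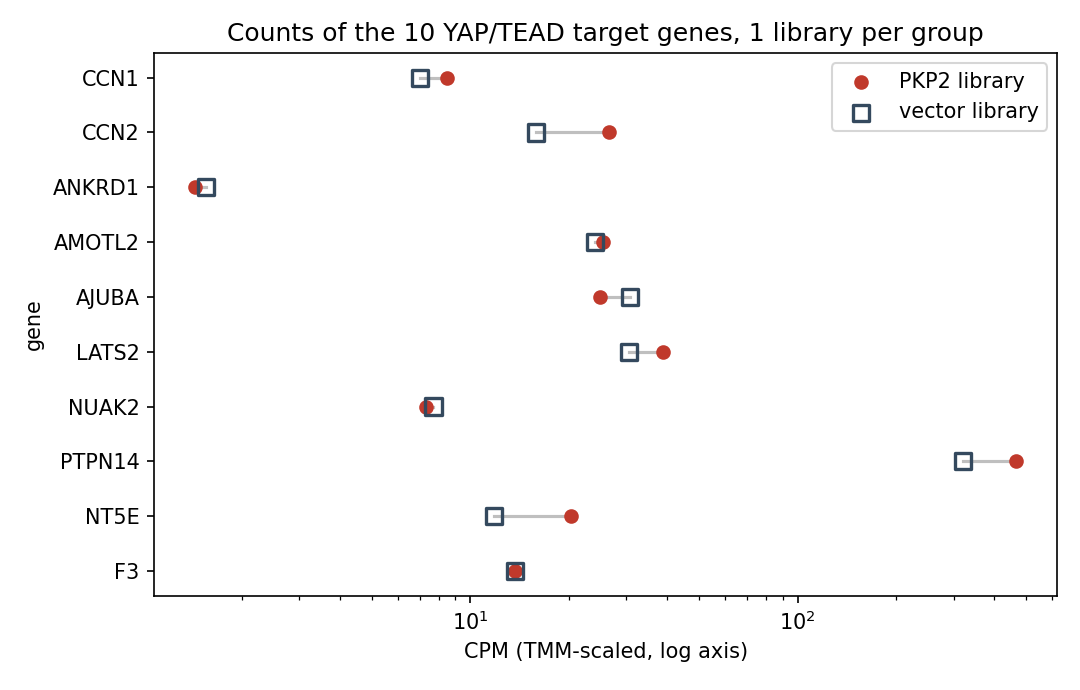
CPM of each member on a log axis in the PKP2 library (filled circles) and the vector library (open squares), 1 library per group, so there are no error bars. PTPN14 stands far above the rest at 467 CPM in the PKP2 library and 321 CPM in the vector library, the widest gaps are those of CCN2 and NT5E, and the symbols of F3 coincide.

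At least 1.5-fold higher were 2 of the 10 members, and 6.87% of the 15991 genes passed the same mark (4.51% of the 11637 genes that reach a mean of 100 counts). The counting intervals of these members begin at 0.55 (CCN2) and 0.56 (NT5E), below 1.5-fold, which is 0.585 on the log2 scale. No member was 1.5-fold lower, where 12.9% of all genes were. None was 2-fold higher or lower, and 2.46% of all genes were 2-fold higher and 4.61% 2-fold lower. The counting interval lay wholly above 0 for 4 members (CCN2, NT5E, PTPN14 and LATS2), beside 25.9% of all genes, and wholly below 0 for 1 member, beside 28.8%. With 10 genes these shares are a description only. Summed, the members had 634 CPM in the PKP2 library and 464 CPM in the vector library, a ratio of 0.45. Without PTPN14 they had 167 CPM in the PKP2 library and 143 CPM in the vector library, a ratio of 0.22 (interval 0.15 to 0.29). CCN2 and NT5E gave 26.6 and 20.4 CPM of this sum in the PKP2 library, and 15.8 and 11.8 CPM in the vector library. AJUBA, whose interval lay wholly below 0, gave 24.9 CPM in the PKP2 library and 30.8 CPM in the vector library.

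Across all genes the ratio goes down with the GC content of the transcript (Spearman's rho -0.61 over 11610 genes of 1 pair of libraries, which are not independent), so the ratio of a gene depends in part on where it lies on that axis. NT5E (42.4% GC), ANKRD1 (43.3%), F3 (43.7%) and PTPN14 (45.8%) lie at the low end, where most genes are above 0. NUAK2 (56.9%) and AMOTL2 (57.6%) lie at the high end, where most are below 0, and CCN2 is at 51.5%. After a smooth curve on GC content was subtracted, CCN2 had the highest ratio of the 10, at 0.80 (interval 0.61 to 1.00), and NT5E followed at 0.64 (interval 0.42 to 0.86). These remained the members at least 1.5-fold higher, where 6.30% of all genes with a known transcript were. None was 1.5-fold lower, where 1394 of these 15893 genes were. PTPN14 stood at 0.47, LATS2 at 0.41, CCN1 at 0.31 (interval -0.00655 to 0.63) and AMOTL2 at 0.31.

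The largest shift was that of AMOTL2, whose interval of 0.14 to 0.48 after the correction no longer takes in 0. NUAK2 was at 0.12 corrected and -0.08 as counted, both with 0 in the interval, while AJUBA stayed below 0 at -0.22 (interval -0.39 to -0.05). ANKRD1 was at -0.24 and F3 at -0.12, both with 0 in the interval. Corrected, the interval lay wholly above 0 for 5 members (CCN2, NT5E, PTPN14, LATS2 and AMOTL2), beside 21.4% of genes, and wholly below 0 for 1, beside 21.1%. The median of the 10 was 0.31 corrected for GC content, and 0.27 relative to the 100 genes nearest to each in GC content and length, beside -0.0071 and -0.0065 over all genes. The intervals do not include the error of the curve.

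**Figure D3:**
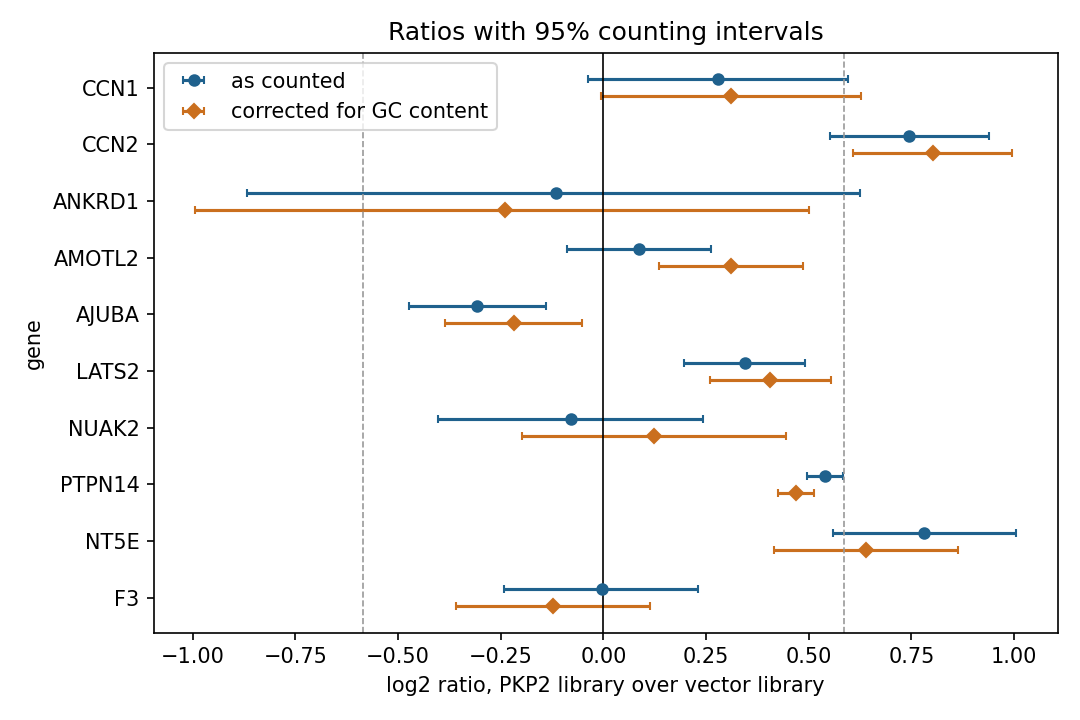
Log2 ratio of each member, PKP2 library over vector library, as counted (circles) and corrected for transcript GC content (diamonds), with 95% counting intervals and dashed lines at 1.5-fold. The points of CCN2 and NT5E lie beyond the right dashed line by both measures. As counted, both of their intervals reach below that line, and corrected, that of NT5E does. AJUBA lies left of 0 by both measures, and AMOTL2 moves clear of 0 with the correction.

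**Figure D4:**
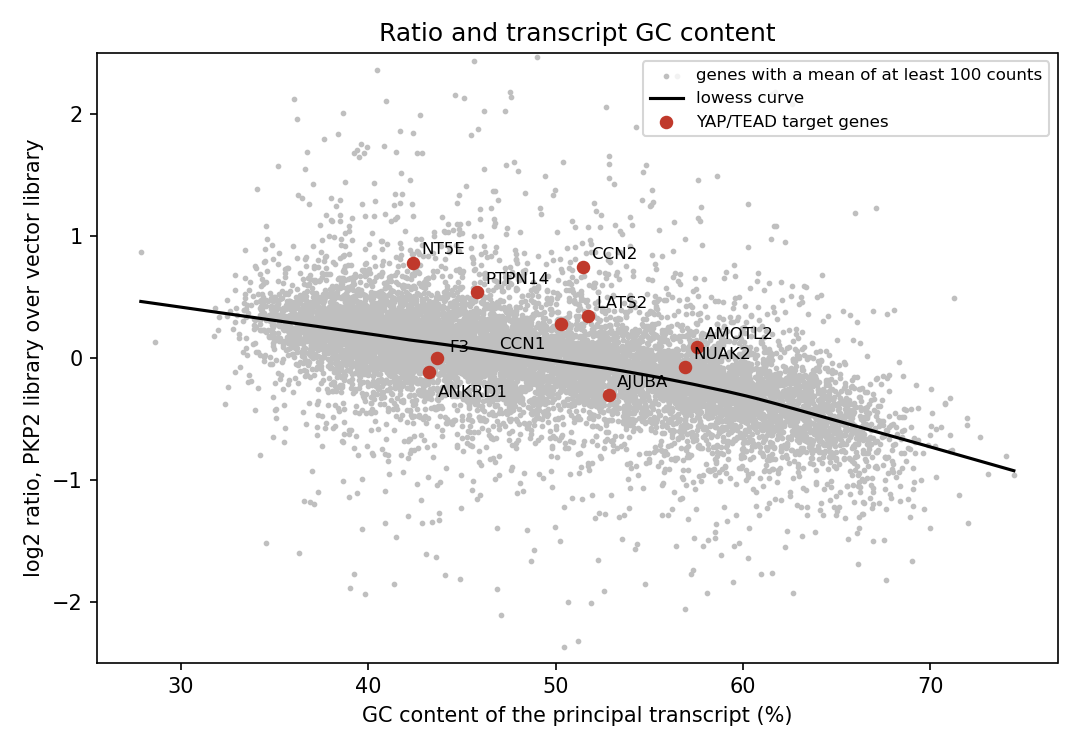
Log2 ratio against GC content of the principal transcript for 11610 genes that reach a mean of 100 counts (grey; 19 lie beyond the axis), with the lowess curve and the 10 members, of which ANKRD1 has fewer counts than the grey genes. NT5E, PTPN14, CCN2, LATS2, CCN1, AMOTL2 and NUAK2 lie above the curve and F3, ANKRD1 and AJUBA below it.

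Levels can be compared between genes only per length, here as CPM per kilobase of the principal transcript. PTPN14 was the most abundant member on that scale, with 36.0 in the PKP2 library and 24.7 in the vector library. In the PKP2 library CCN2 came next at 11.4, followed by LATS2 at 7.02, each apart from the next gene by more than counting error. F3, AJUBA, NT5E and AMOTL2 followed between 5.97 and 5.68, with no neighbours apart beyond counting error, then CCN1 at 3.71, NUAK2 at 2.12 and ANKRD1 at 0.73. In the vector library AJUBA (7.22), CCN2 (6.78), F3 (5.99), LATS2 (5.53) and AMOTL2 (5.34) formed a run in which no neighbours were apart beyond counting error. NT5E (3.34) and CCN1 (3.06) formed the next pair, and NUAK2 (2.24) and ANKRD1 (0.79) were again last. CCN2 was thus 1.68-fold higher in the PKP2 library and stood clear of AJUBA there, while in the vector library it did not.

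Shared sequence touches the members little. Between 0% and 6.60% of the 31-base stretches of each, the highest being NUAK2, were found in transcripts of another listed gene, and none but PTPN14 overlaps exons of another listed gene.

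Each member other than NT5E and F3 was also set against genes of its own family. The measure was the difference between the ratios of member and relative, with an exact conditional interval of the 4 counts. It does not depend on how libraries are scaled. The 10 pairs were chosen after the counts had been seen, and the intervals are not adjusted for their number. CCN2 stood 0.47 above CCN1 (interval 0.09 to 0.84). CCN3, another gene of that secreted family, had 520 counts in the PKP2 library and 964 in the vector library, a ratio of -0.65 (interval -0.81 to -0.50). CCN2 stood 1.40 above CCN3 (interval 1.15 to 1.65) and CCN1 0.93 above it (interval 0.58 to 1.29). Corrected for GC content CCN1 stood 1.01 above CCN3 and CCN2 0.49 above CCN1, so the 3 genes kept their order. CCN5 had only 38 counts in the PKP2 library and 41 in the vector library, and its difference from CCN2 had an interval with 0 in it.

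LATS2 and its paralog LATS1 had like ratios, 0.34 and 0.41, a difference of -0.06 (interval -0.25 to 0.13), or 0.20 (interval 0.01 to 0.40) corrected for GC content. AMOTL2 and AMOTL1 differed by -0.04 (interval -0.28 to 0.19), and by 0.18 (interval -0.05 to 0.42) corrected. NUAK2 lay 0.50 below NUAK1 (difference -0.50, interval -0.84 to -0.15; -0.42 corrected), which had 1340 counts in the PKP2 library and 1182 in the vector library. AJUBA lay below its relative LIMD1, with a difference of -0.27 (interval -0.46 to -0.08), and of -0.16 (interval -0.35 to 0.03) corrected for GC content. PTPN14 stood 0.21 above PTPN21 (interval 0.01 to 0.41), and 0.14 (interval -0.06 to 0.34) corrected. ANKRD1 differed from ANKRD23 by -0.54 (interval -1.39 to 0.30), and by -0.98 (interval -1.82 to -0.14) corrected. Of the 10 measured relatives of the members 2 were 1.5-fold lower (CCN3 and WTIP) and none higher as counted, with a median of 0.13. Corrected for GC content, ANKRD23 was 1.5-fold higher, at 0.74 (interval 0.36 to 1.11). For this list and those below, the shares of all genes past 1.5-fold were 6.87% higher and 12.9% lower as counted. Corrected for GC content, 1001 of 15893 genes were higher and 1394 were lower.

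The genes of YAP, TAZ, the TEAD factors and VGLL4 went both ways. YAP1 had 1947 counts in the PKP2 library and 1924 in the vector library, a ratio of 0.25, and WWTR1, which encodes TAZ, had 3269 counts in the PKP2 library and 2905 in the vector library, a ratio of 0.41. Corrected for GC content these were 0.13 and 0.23. TEAD1, the best counted of the TEAD genes, was at 0.42 (0.24 corrected), and TEAD4 was at -0.08 (0.24 corrected). TEAD2 was at -0.45 (379 counts in the PKP2 library and 608 in the vector library; -0.22 corrected) and TEAD3 at -0.62 (187 counts in the PKP2 library and 338 in the vector library; -0.32 corrected). VGLL4, which competes with YAP for TEAD, was at 0.61 (interval 0.51 to 0.71), with 1798 counts in the PKP2 library and 1388 in the vector library, and at 0.68 corrected. Of the 7 measured genes of this group of 10, 1 (VGLL4) was 1.5-fold higher, 1 (TEAD3) was 1.5-fold lower (none corrected) and none passed 2-fold, with a median of 0.25.

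None of the 28 Hippo kinases and scaffolds passed 1.5-fold. Their median was 0.12 and their ratios ran from -0.31 to 0.42. MOB4 and MOB1B, of the MOB family of kinase adaptors, were both at 0.42 and SAV1, the scaffold of the MST kinases, at 0.41, and corrected for GC content these were 0.16, 0.10 and 0.28. Of 17 measured junction proteins that act on the pathway, 1 (FAT4) was 1.5-fold higher and 4 were lower (SCRIB, LLGL1, WTIP and DCHS1), with a median of 0.11. The related lists share genes, so they are not separate. AMOT, AMOTL1, LIMD1, WTIP and PTPN21 are also among the relatives, where WTIP was counted as lower too. LATS1 is in the Hippo list and among the relatives, and AMOTL1 is also among the other targets below. Corrected for GC content 1 of the 17 was higher and 2 were lower (WTIP and DCHS1). Both corrected intervals took in 0 (-1.34 to 0.11 for WTIP and -1.63 to 0.33 for DCHS1). WTIP had 26 counts in the PKP2 library and 52 in the vector library. DCHS1 was 2-fold lower as counted, with 14 counts in the PKP2 library and 33 in the vector library. FAT4, a giant cadherin, was at 0.72 (466 counts in the PKP2 library and 333 in the vector library). The polarity genes SCRIB and LLGL1 were at -0.66 and -0.63, but at -0.08 and -0.27 corrected.

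Another 20 YAP/TEAD targets had ratios from -1.81 to 1.37. Of these, 4 were 1.5-fold higher (COL8A1, TGFB2, CRIM1 and CAVIN2), COL8A1 by 2-fold, and 3 were lower (AXL, THBS1 and TGM2), all by 2-fold, with a median of -0.06. Corrected for GC content 2 were 1.5-fold higher (COL8A1 and TGFB2), 4 were lower (AXL, THBS1, TGM2 and LMCD1) and the median was 0.13. Of all 15893 genes with a known transcript 1001 were higher and 1394 were lower by that measure. COL8A1, a network-forming collagen chain, was at 1.37 (4737 counts in the PKP2 library and 2165 in the vector library). TGFB2, a TGF-beta ligand, was at 0.93 (1941 counts in the PKP2 library and 1202 in the vector library). AXL, a receptor tyrosine kinase, was at -1.23 (64 counts in the PKP2 library and 177 in the vector library). THBS1 and TGM2 had under 30 counts in each library, and the interval of TGM2 (-2.82 to 0.25) took in 0. As counted, CCN2 and NT5E lay below TGFB2 and above CRIM1 (0.61) and CAVIN2 (0.60), but corrected for GC content CCN2 (0.80) lay above TGFB2 (0.70). No member was as low as AXL.

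CCN1, CCN2 and ANKRD1 also respond to AP-1, to SRF and to handling of the cells, so the genes of those programmes were read beside them. Of 14 AP-1 and early response genes 3 were 1.5-fold higher (IER2, DUSP1 and FOSB) and 2 lower (JUND and KLF6), with a median of -0.27. FOSB had 15 counts in the PKP2 library and 9 in the vector library, with 0 in its interval. Corrected, 3 were higher, 1 was lower (KLF6) and the median was -0.09. IER2 was at 1.08 and the AP-1 subunit gene JUND at -1.24 (-0.52 corrected), and KLF6 was at -0.77. Of 15 measured SRF and MRTF genes none was 1.5-fold higher and 2 were lower (MRTFB and TPM2), with a median of -0.32. Corrected, 1 was higher (MYL9, with 43 counts in the PKP2 library and 34 in the vector library), 1 was lower (MRTFB) and the median was -0.11. MRTFB, an SRF coactivator, was at -1.04 (658 counts in the PKP2 library and 1597 in the vector library), the tropomyosin gene TPM2 at -0.76 (-0.44 corrected) and the calponin gene CNN2 at -0.50 (-0.23 corrected). The medians of both groups were below 0, as was ANKRD1 with 0 in its interval, while CCN2 was above 0 and CCN1 was above 0 with 0 in its interval. Their part in the ratios of the members was not tested.

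**Figure D5:**
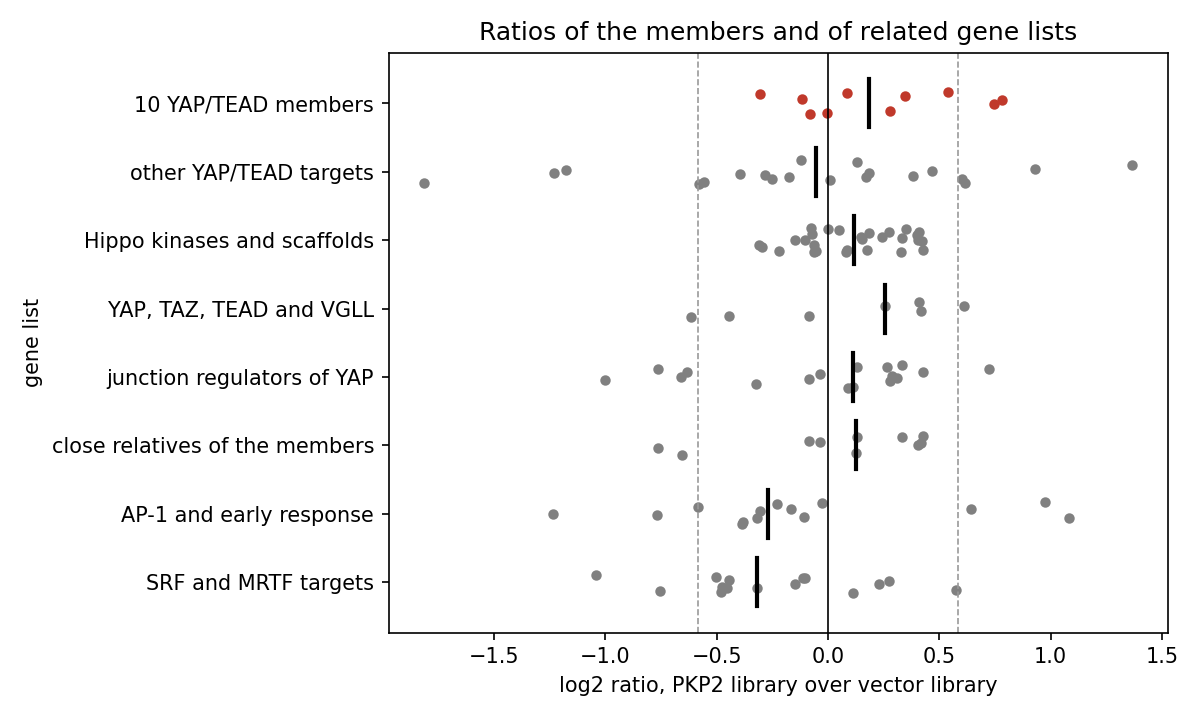
Log2 ratios, PKP2 library over vector library, of the 10 members (red) and of the measured genes of 7 related lists (grey), with black bars at the medians and dashed lines at 1.5-fold. Some genes stand in several of the related lists. The members reach from -0.31 to 0.78 with a median of 0.18, the Hippo kinases and scaffolds lie within 1.5-fold, and the medians of the AP-1 and SRF lists lie below 0.

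Ratios overlapped between members with and without a TEAD match. The 6 members with a TEAD match had ratios from -0.31 (AJUBA) to 0.75 (CCN2), and the 3 members with a window and no match had ratios from -0.0045 (F3) to 0.78 (NT5E). CCN2, with 3 matches, was higher in the PKP2 library, while NUAK2 and ANKRD1, with 2 each, had 0 in their intervals.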

How the data were processed

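Libraries of total RNA were prepared with the TruSeq RNA kit of Illumina, per the labels' protocols. Bowtie 0.12.2 and the builds GRCh37 and hg19 are named in the submitters' processing notes, while how reads were counted (program, annotation, strand) is not given in the sources used here. Each deposited file gives raw counts by Ensembl gene, per the file headers. The deposited columns are classed as estimated counts because 1 damaged row has a decimal, and nothing was rounded. That row and the empty row of TGFB1 were dropped from each file, and TGFB1 was not analysed here.

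Symbols matched 22579 IDs. TMM factors were 0.991 (PKP2) and 1.01 (vector), from edgeR 4.0.16 in R 4.3.3, which served for scaling alone, and no pseudocount was added. Reads carry no molecular identifiers, so repeated copies of a molecule cannot be told apart, and the intervals do not allow for them. The intervals come from 1 pair of counts and describe counting error only. A quasi-likelihood test in edgeR needs replicates, so no p-value was computed. GC content and length are those of the APPRIS principal (otherwise longest) transcript in GENCODE release 29, matched by gene ID without coordinates, for 99.4% of the genes that reach a mean of 10 counts. The lowess curve (fraction 0.3, statsmodels 0.14.6) was fitted over genes that reach a mean of 100 counts. The scripts ran in Python 3.11.15 with SciPy 1.17.1, pandas 2.3.3, NumPy 2.4.6 and matplotlib 3.10.9, and were tested on simulated data. Alternatives were 3 pseudocounts, 2 filters, 4 scalings (1 by DESeq2 1.42.0) and 2 corrections for GC content.

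The members, lists, thresholds and rules were chosen with earlier results of these data known. The rule named all members, PKP2, YAP1, WWTR1, TEAD1 to TEAD4 and, of each related list, up to 3 genes with at least 100 counts on average and the ratio farthest from 0. CCN5, WTIP, DCHS1, CRIM1, CAVIN2, THBS1, TGM2, DUSP1, FOSB, LMCD1, MYL9, LATS1, AMOTL1, LIMD1, PTPN21, the gene overlapping PTPN14 and the cell type markers were named after their values were seen.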

Additional observations from a re-analysis of the deposited data

How the results depend on the processing

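No paired analysis was possible because each group has 1 library. Under all 11 alternatives run, CCN2 and NT5E stayed at least 1.5-fold higher, no other member passed 1.5-fold and none passed 2-fold. The 2 filters cannot change the ratio of a gene, so for single members they are no check. CCN2 ranged from 0.60 to 0.80, NT5E from 0.59 to 0.80, and the median of the members from 0.12 (5 CPM added) to 0.31 (GC correction). CCN1, AMOTL2, LATS2 and PTPN14 stayed above 0, AJUBA stayed below it and so did ANKRD1 in the 10 alternatives that measure it, while NUAK2 was above 0 in 2 of 11 alternatives and F3 in 2. AMOTL2 (0.31 and 0.28) and PTPN14 (0.47 and 0.43) left their counting intervals with the GC correction and against the nearest genes. For other YAP/TEAD targets the median moved to 0.13 by both corrections, and for SRF and MRTF genes to -0.11 with the GC correction, -0.13 against the nearest genes and -0.12 with 5 CPM added. The median of YAP, TAZ, TEAD and VGLL genes was 0.085 with no filter, which adds VGLL3 at 3 counts in the PKP2 library and 7 in the vector library. That of the relatives was 0.33 with a mean of at least 50 counts, which takes out the low genes. Over all genes, those at least 1.5-fold higher numbered 1098, and from 364 (5 CPM added) to 2966 (no filter), and those 1.5-fold lower numbered 2060, and from 470 to 4794. ANKRD1, at 29 counts in the PKP2 library and 37 in the vector library, is limited by depth and drops out at a mean of 50 counts.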
